A study of Mus musculus with 10 samples.

Results

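The genes described here encode receptor tyrosine kinases, the RAS-RAF-MEK-ERK cascade that many of these receptors switch on, and the inhibitors and transcription factors that lie below it, with the ubiquitin protease gene *Usp8*. They were taken as a list of 41 gene symbols, and all 41 were found among the 53801 genes of the count table. Of these members, 26 had enough reads to be tested and 15 did not. RNA was sequenced from AtT20/D16v-F2 cells, a mouse line from a pituitary corticotroph tumour that makes pro-opiomelanocortin. One stable line carried a lentivirus with a non-targeting shRNA (5 libraries, the control line) and another carried a lentivirus with *Creb3l1*-shRNA1 (5 libraries, the knockdown line). Both lines were grown in serum-supplemented medium, and no ligand or inhibitor of these receptors is named in the labels. Each condition is 1 stable line, so the knockdown and any other difference between the lines cannot be told apart. The study's methods call its replicates biological, but the labels name no separate cultures, so the p-values measure the spread between these libraries, which may be technical. Whether a line is 1 clone or a pool is not given in the sources used here.

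A receptor tyrosine kinase spans the cell membrane, binds a growth factor outside the cell and phosphorylates itself and its partners inside. Adaptors then load RAS proteins with GTP, RAS recruits a RAF kinase, RAF activates the MEK kinases (*Map2k1*, *Map2k2*) and these activate ERK kinases such as that encoded by *Mapk3*. ERK signalling induces its own brakes, among them DUSP phosphatases, Sprouty and SPRED proteins and the EGF receptor inhibitor encoded by *Errfi1*, and it acts on the PEA3 group of ETS factors (*Etv1*, *Etv4*, *Etv5*). In corticotroph tumours of Cushing's disease, USP8 is known for activating mutations, and the protease removes ubiquitin from the EGF receptor and so spares it from degradation.

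The hairpins are shown because they define the 2 lines. Each target is written 5′ to 3′ as it would read in an mRNA, and the capitals mark the 7 bases that pair with the seed (bases 2 to 8) of the guide strand.
Creb3l1-shRNA1: gagtcggatttccTCAACAAt
Non-targeting shRNA: atcatgttaggcgTACGGACt
The word of the *Creb3l1* hairpin was present in the longest annotated transcript of 9 of the 26 members tested (34.6%), against 23.1% of the 14315 genes tested that have an annotated transcript. Of the members that fell it was in 2 of 6 (*Fgfr2* and *Spred2*), and of those that rose in 4 of 9. No member tested shared a run of more than 9 bases with the target. The shares of genes with the word were not matched for transcript length, and a longer transcript has more places for a word of 7 bases. The part of such matches in the values below was not tested.

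Between 17420698 and 22205107 reads were counted per library. *Creb3l1* itself ranged from 3531 to 3864 normalised counts in the control line and from 1014 to 1159 in the knockdown line, a log2 difference of -1.76 ± 0.036 (SE). Normalised counts are counts scaled to a common library size by edgeR's TMM factors. One control library stood apart. *Gm42418*, a non-coding gene, held 4.13% of all reads counted in non-targeting shRNA replicate 3, where elsewhere the share ran from 0.106% to 0.191%. All 15 members called below were also called without that library. Corticotroph markers were present, with *Pomc* at a mean of 131411 normalised counts in control libraries, although *Avpr1b* had no count. The summed normalised counts of the 8 markers, most of them from *Pomc*, were between 152700 and 163880 in control and between 110750 and 117500 in knockdown libraries. The markers did not move as one. *Pomc* (0.70-fold), *Tbx19* (0.83-fold), *Pcsk1* (0.73-fold) and *Nr3c1* (0.90-fold) fell. *Neurod1* (1.53-fold) and *Pitx1* (1.28-fold) rose. *Crhr1* was low, with 18 to 48 counts per library, and was not called. By quantitative PCR the study found no change in *Pomc* mRNA in its knockdown lines. Of 8 markers of other pituitary cells, *Gh*, *Prl*, *Tshb*, *Fshb* and *Pou1f1* had at most 1 count in any library, *Lhb* at most 2 and *Cga* at most 8. *Nr5a1* was present in every library, with 54 to 84 counts, and was not called. The summed normalised counts of 7 fibroblast and vessel markers were between 857 and 1229 in control and between 984 and 1771 in knockdown libraries, with *Lum* and *Cdh5* at 0. *Col1a1* and *Col1a2*, neither of them called, made up most of that sum. The vessel gene *Pecam1* was the one marker of these called and fell, from a mean of 13.8 to 6.41 normalised counts (edgeR adjusted p = 0.0063). Their part in the results was not tested. In RNA from a whole culture, fewer cells that express a gene and less RNA per cell cannot be told apart.

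Few of the receptors were expressed at a high level in AtT20 cells. Levels of different genes were compared as FPKM, here the counts per kilobase of exon scaled to the effective library size. On this scale 21 of the 41 members had a control level of at least 1 and 15 were under 0.1. *Fgfr1*, a receptor for fibroblast growth factors, was the highest of the 20 receptors at 41.4. The collagen receptors *Ddr1* (25.3) and *Ddr2* (18.3) came next, followed by the insulin receptor *Insr* (8.18) and the neuregulin receptor *Erbb3* (5.28). Over all exons *Fgfr1* held 40.7% of the summed level of these 20 receptors in control and 40.8% in knockdown libraries. Every step of the cascade was present, and *Mapk3*, which encodes ERK1, was the highest of all 41 members at 133. *Usp8* was at 38.1, with rank 3 of the 41 over all exons and rank 5 over the longest transcript.

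**Figure D1:**
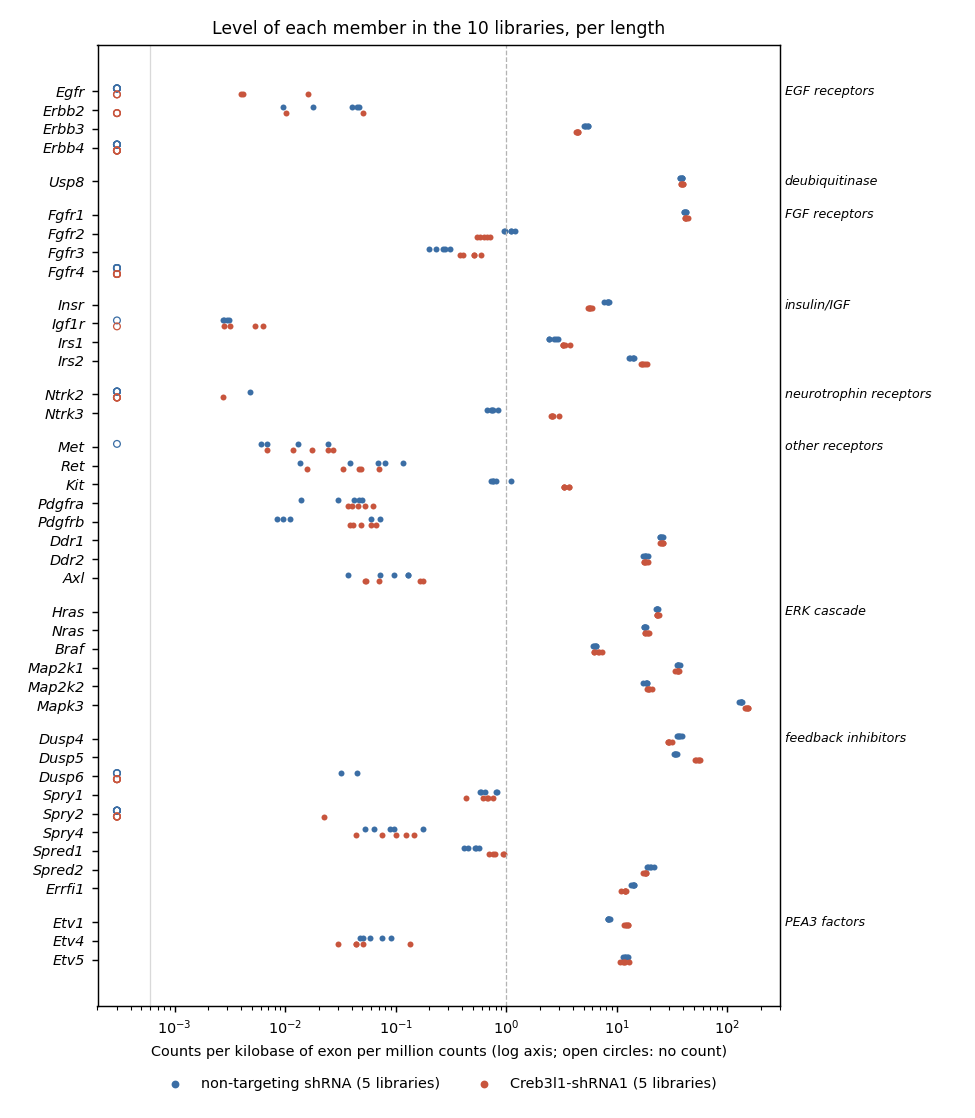
Level of each member in every library, in FPKM on a log axis, with the 5 control libraries in blue and the 5 knockdown libraries in red. Open circles on the left stand for libraries with no count and the dashed line marks a level of 1; *Mapk3* and *Fgfr1* are the highest members in the control line.

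Several well known partners were at or near 0. *Egfr*, the receptor that USP8 is known to deubiquitinate, had no count in any of the 5 control libraries. In the knockdown libraries it had 6 counts in all, 4 of them in replicate 1, with 0 in replicates 2 and 3. A total of 0 among 99380436 counts allows a level of up to 0.0302 CPM (counts scaled to the library total), from a limit of 3 counts that covers counting error only. *Erbb4* and *Fgfr4* had no count in any library. *Erbb2*, the partner that the kinase-impaired receptor encoded by *Erbb3* usually signals through, had 16 counts in the control line and 6 in the knockdown line. *Igf1r*, the receptor for insulin-like growth factors, had 4 and 6 counts and *Ntrk2*, the BDNF receptor, had 2 and 1. *Met* (hepatocyte growth factor receptor) had 8 and 14 counts. *Ret*, *Pdgfra*, *Pdgfrb* and *Axl* were between 1 and 19 counts in each library. Among the feedback genes *Dusp6* had 5 counts in the control line and 0 in the knockdown line, and *Spry2* had 0 and 1. *Spry4* and *Etv4* were between 2 and 16 counts per library. These 15 genes were too low to be tested, and a difference between the lines was not detectable in them at this depth.

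Of the 26 members tested, 9 were higher and 6 were lower in the knockdown line in edgeR's quasi-likelihood test, with adjusted p values held to 0.01. That is 57.7% of those tested, where 40.7% of all 14336 genes tested were called, 20.6% as higher and 20.1% as lower. Deeper genes were called more often, from 21.2% of the 3584 genes with the fewest reads to 56% of the 3584 with the most. Of the members tested, 16 were among the latter and 7 of them were called. In the groups of 3584 genes with fewer reads, from the lowest depth upwards, 2 of 3, 4 of 4 and 2 of 3 members were called. Of all genes in these groups 21.2%, 38.2% and 47.5% were called. Members were thus called less often than all genes at the greatest depth and more often below it, where they were few. The part of depth in the number of calls was not tested, and that number is read as no result about these genes as a group. The median log2 fold change of the 26 members was 0.032, against -0.0025 over all genes tested. A change of at least 1.5-fold was found in 6 members, 5 higher and 1 lower. Of all genes tested 7.73% were so called, 3.28% as higher and 4.45% as lower. In each of the 15 members called, and in no other member tested, every library of one line was above every library of the other. That is 57.7% of the 26 members tested, against 36% of all genes tested, called or not. The share among all genes called was not computed, and separation largely goes with a call. Each of the 15 kept its call and direction in all 18 alternative fits.

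**Figure D2:**
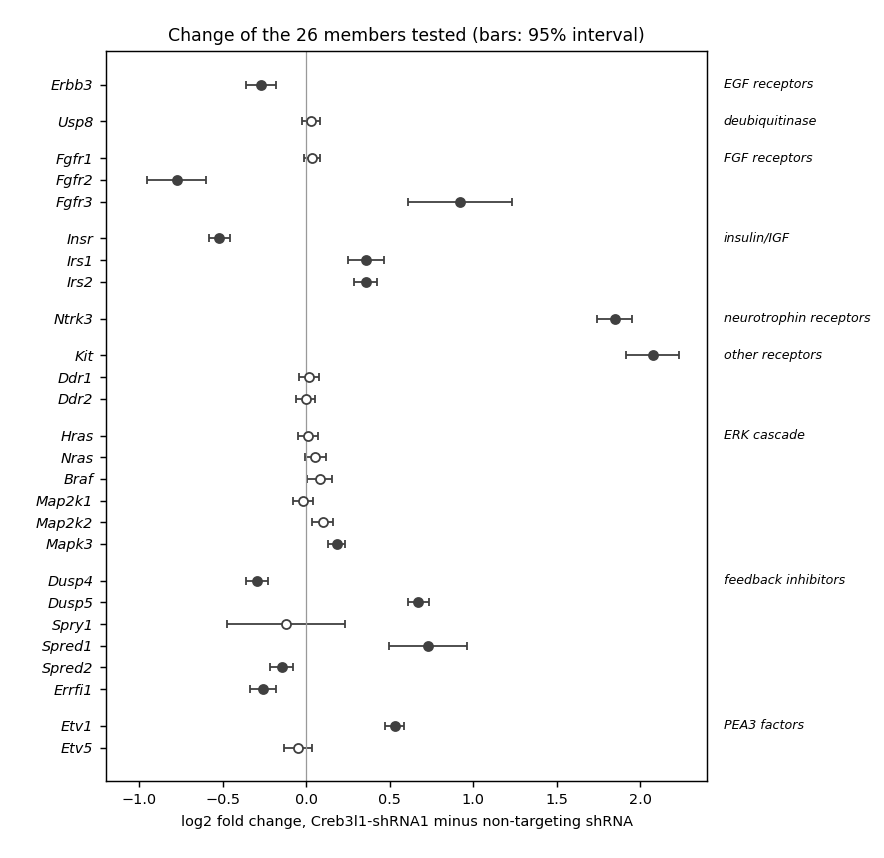
Log2 fold change of the 26 members tested, knockdown minus control line, with bars for the 95% interval, and filled points passed an adjusted p of 0.01 and open points did not. *Kit* (2.07) and *Ntrk3* (1.85) stand farthest to the right and *Fgfr2* (-0.78) farthest to the left, and the cascade genes lie close to 0.

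**Figure D3:**
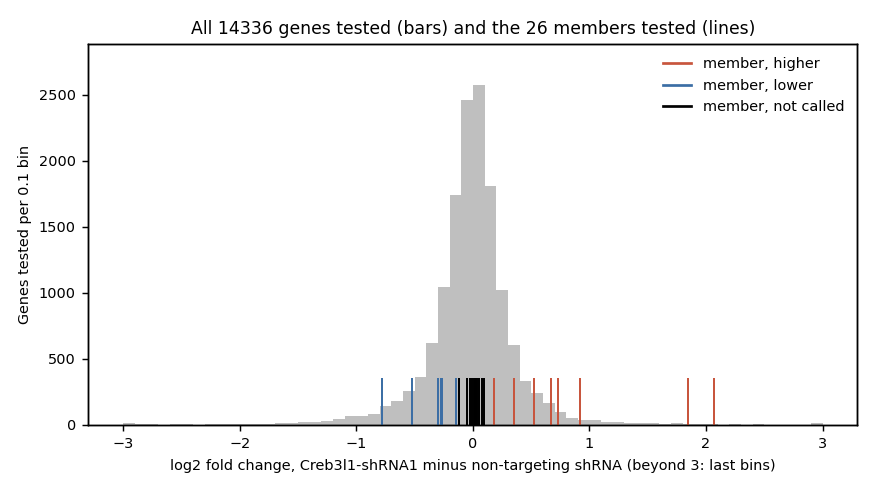
Histogram of the log2 fold changes of all 14336 genes tested in bins of 0.1 (grey), with the 26 members as lines (red higher, blue lower, black not called). Most members lie within the bulk of the genes, and *Kit* and *Ntrk3* lie in its right tail.

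The largest changes were in *Kit* and *Ntrk3*, receptors that were low in the control line. *Kit* encodes the receptor for stem cell factor and spans 75574916 to 75656722 of chromosome 5 (GRCm38, plus strand, ENSMUSG00000005672). Its normalised counts in control replicates 1 to 5 were 136, 199, 131, 137 and 146. In knockdown replicates 1 to 5 they were 606, 672, 669, 605 and 604. Every knockdown library was more than 3 times as high as every control library. Means were 149.8 ± 28.2 (SD, n = 5) and 631 ± 35.9 (SD, n = 5), a 4.21-fold increase with a log2 change of 2.07 ± 0.080 (SE, edgeR adjusted p = 1.8e-20). As large a change in either direction was found in 70 of the genes tested (0.488%).

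*Ntrk3* encodes TrkC, the receptor for neurotrophin 3, and spans 78175959 to 78738012 of chromosome 7 (minus strand, ENSMUSG00000059146). Its counts were 445, 409, 519.6, 456 and 460.1 in control replicates 1 to 5. In the knockdown replicates they were 1619.8, 1566, 1585, 1591 and 1847. The lines were again far apart, with means of 458 ± 39.9 (SD, n = 5) and 1642 ± 116 (SD, n = 5). The increase was 3.60-fold, with a log2 change of 1.85 ± 0.053 (SE, edgeR adjusted p = 2.1e-20). Per length *Kit* moved from 0.829 to 3.49 and *Ntrk3* from 0.749 to 2.68 FPKM. Both stayed well under *Fgfr1*, *Ddr1* and *Ddr2* in the knockdown line.

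**Figure D4:**
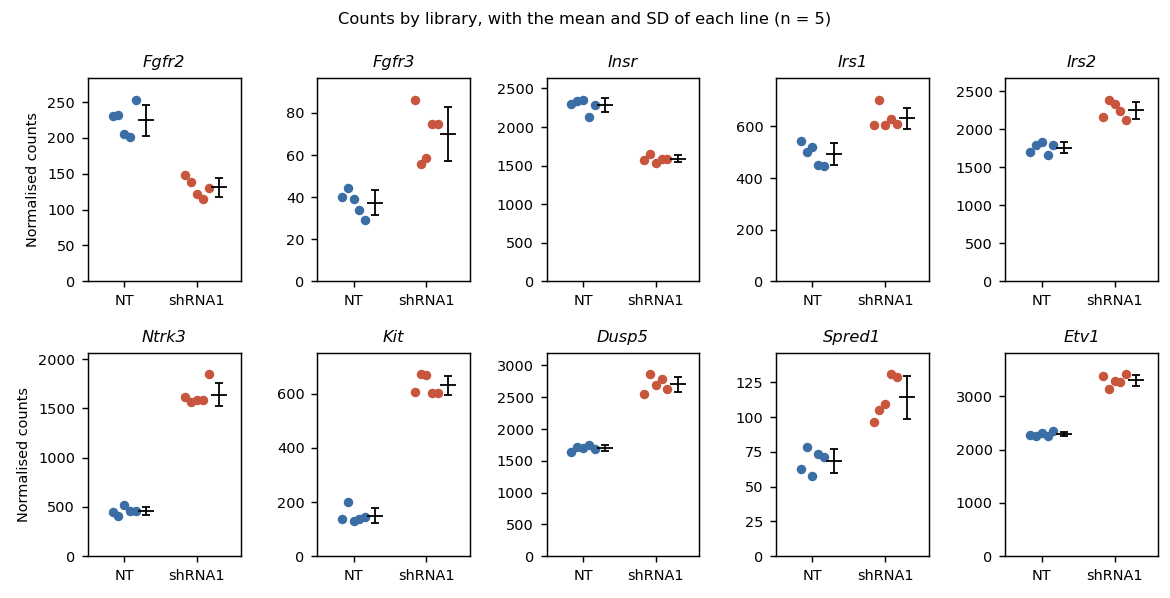
Normalised counts of the 10 called members with the largest changes, for the 5 control (NT) and 5 knockdown (shRNA1) libraries, on axes that start at 0, with the mean and SD of each line beside the points. In none of the 10 panels do the lines overlap; *Kit* and *Ntrk3* show the widest gaps and *Irs1* and *Irs2* the narrowest folds, each 1.28.

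Among the FGF receptors the abundant gene was not called while the 2 scarce ones moved in opposite directions. *Fgfr1* (ENSMUSG00000031565, chromosome 8, 25513654 to 25575718) was at 8520.4, 8447, 8055, 8287 and 8093 in control and 8323, 8815, 8511, 8246 and 8544 in knockdown replicates 1 to 5. The ranges overlapped, and the log2 fold change was 0.04, with a 95% interval (here and below from the standard error) from -0.01 to 0.08. *Fgfr2* (ENSMUSG00000030849, chromosome 7, 130162451 to 133123350), another receptor for many FGFs, was at 230.3, 232, 205, 201 and 254 in control libraries. It was at 148, 139, 122, 115 and 131 in knockdown libraries. It fell by 0.78 on the log2 scale (SE 0.090, edgeR adjusted p = 1.2e-09), from 224 ± 21.6 to 131 ± 13.2 normalised counts (SD, n = 5 each). The gene model of *Fgfr2* shares 3.04% of its exon bases with *Ctbp2* on the same strand, and reads there could have been left uncounted. *Fgfr3* (ENSMUSG00000054252, chromosome 5, 33721674 to 33737068) had few reads. Its counts were 40.2, 44.5, 39.1, 33.8 and 29.2 in control replicates and 86.4, 55.7, 58.5, 74.9 and 74.5 in knockdown replicates. The lowest knockdown value was thus above the highest control value, and the log2 change was 0.92 ± 0.16 (SE, edgeR adjusted p = 5.6e-06). The opposite-strand gene over 13.9% of its exon bases had no count. Per length *Fgfr1* made up 96.9% of the summed FGF receptor level in control and 97.5% in knockdown libraries.

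The insulin receptor fell while both of its main substrates rose. *Insr* (ENSMUSG00000005534, chromosome 8, 3122061 to 3279617) had counts of 2298, 2336, 2356, 2127 and 2288 in control replicates 1 to 5. In the knockdown replicates they were 1578, 1656, 1529, 1589.9 and 1586. All knockdown libraries were lower than all control libraries, and *Insr* fell by 0.52 on the log2 scale (SE 0.033, edgeR adjusted p = 4.0e-17). *Irs1* and *Irs2* encode the adaptor proteins that the insulin and IGF1 receptors phosphorylate. *Irs1* (chromosome 1, 82233101 to 82291416) was at 545, 501, 521, 453 and 448 in control libraries and at 606, 704, 604, 629 and 611 in knockdown libraries. *Irs2* (chromosome 8, 10984681 to 11008458) was at 1699.8, 1791, 1839, 1667 and 1791 in control libraries and at 2165, 2391, 2332, 2237 and 2117 in knockdown libraries. The lines did not overlap for either gene. A gene on the opposite strand overlaps 30.9% of the exon bases of *Irs1*, and it had no count. Both genes had a log2 fold change of 0.36, with standard errors of 0.056 for *Irs1* and 0.035 for *Irs2* (adjusted p = 1.1e-06 and 1.9e-11, edgeR). *Irs2* held 83.7% of the summed level of the pair in each line. *Insrr*, an insulin receptor-related kinase that was no member of the list, had 734 ± 33.6 and 1547 ± 66.0 normalised counts (SD, n = 5 each) and rose 2.11-fold. Per length *Insr* was above *Insrr* in the control line (8.18 against 6.33) and below it in the knockdown line (5.70 against 13.4).

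*Erbb3* was the only EGF receptor family gene with enough reads to test. Its counts were between 615 and 672 in control and between 521 and 542 in knockdown libraries, with no overlap. The log2 change was -0.27 ± 0.046 (SE, edgeR adjusted p = 4.2e-06). *Usp8* (ENSMUSG00000027363, chromosome 2, 126707328 to 126759297) was at 3173, 3279, 3303, 3171 and 3278 in control and 3362, 3370.3, 3235, 3216 and 3342 in knockdown replicates 1 to 5. These ranges overlapped. Its log2 fold change was 0.03 with an interval from -0.02 to 0.08 (adjusted p = 0.40, edgeR). The collagen receptors *Ddr1* and *Ddr2* were not called either, with intervals from -0.05 to 0.07 and from -0.06 to 0.05. With offsets for length and GC content *Ddr2* was called as lower, at -0.12.

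Most of the cascade between receptor and ERK did not pass the test. *Hras* was at 1717, 1753, 1759, 1798 and 1758 in control and 1763, 1753, 1813, 1772 and 1746 in knockdown replicates. *Nras* was at 1922, 1964, 1893, 1939 and 2003 in control and 2077, 1931, 2013, 1965 and 2098 in knockdown replicates. Both encode RAS GTPases, and their ranges overlapped between the lines. For *Braf*, the RAF kinase of the list, the counts were 1804, 1813, 1817, 1700.5 and 1754 in control and 2058, 1762, 1883, 1737 and 1941 in knockdown replicates. The MEK1 gene *Map2k1* was at 2545, 2389, 2485, 2449.8 and 2453 in control and 2427, 2443, 2323, 2455 and 2493 in knockdown replicates. Neither gene separated the lines. The log2 fold changes of these 4 genes ran from -0.02 to 0.08.

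*Map2k2*, which encodes MEK2, was at 2159.5, 2108, 2114, 2168 and 1994 in control and 2164, 2380.3, 2236, 2224 and 2271 in knockdown replicates. Only knockdown replicate 1 fell within the control range. The log2 fold change of 0.10 (interval 0.03 to 0.16) had an adjusted p of 0.011 in the edgeR test, just short of the threshold. It passed without non-targeting shRNA replicate 4 (0.11), without *Creb3l1*-shRNA1 replicate 1 (0.11), with library totals (0.11), with the replicate number as a block (0.10) and with the offsets (0.18). *Mapk3* was the one cascade gene called. It was at 6041, 6093, 6124, 6218 and 5890.4 in control and 6874, 6989.9, 6816, 7054 and 6679.5 in knockdown replicates. Every knockdown library was above every control library by a small margin, with a log2 change of 0.18 ± 0.025 (SE, edgeR adjusted p = 9.3e-08). With the offsets it was 0.28.

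The feedback inhibitors did not move as one. Of 9 in the list 6 were tested, and 2 rose, 3 fell and 1 was not called. That is 83.3% called, against 40.7% of all genes tested, and no result about the group is read from this count. *Dusp5* and *Dusp4* encode nuclear phosphatases that act on ERK. *Dusp5* (ENSMUSG00000034765, chromosome 19, 53529109 to 53542431) was at 1641, 1719.9, 1699, 1756 and 1680.3 in control libraries. It was at 2554, 2859.7, 2698, 2784 and 2634 in knockdown libraries. The lines were well apart, and the log2 change was 0.67 ± 0.033 (SE, edgeR adjusted p = 1.2e-20), a 1.59-fold increase. *Dusp4*, in contrast, was between 1953 and 2177 in control and between 1612 and 1748 in knockdown libraries. It fell by 0.30 on the log2 scale (SE 0.033, edgeR adjusted p = 4.9e-10). Of the summed level of the DUSP members per length, *Dusp5* held 47.9% in the control line and 64.3% in the knockdown line. The exons of *Dusp5* overlap a gene on the opposite strand over 22.1% of their bases, and the strand setting of the counting is not given in the sources used here.

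The SPRED genes, whose proteins inhibit activation of the RAS-ERK pathway, also went opposite ways. *Spred1* (ENSMUSG00000027351, chromosome 2, 117121374 to 117182279) was at 62.4, 78.4, 57.5, 73.2 and 71.7 in control and 96.5, 104.9, 109.6, 131 and 129 in knockdown replicates. The lines did not overlap, and the log2 change was 0.73 ± 0.12 (SE, edgeR adjusted p = 2.2e-06). *Spred2*, which was far more abundant per length (19.98 against 0.499 FPKM in control libraries), was at 1871 ± 117 and 1689 ± 43.8 normalised counts (SD, n = 5 each). It fell by 0.15 on the log2 scale (SE 0.035, edgeR adjusted p = 0.00056). *Errfi1* fell by 0.26 (SE 0.040, edgeR adjusted p = 4.6e-07), from between 981 and 1043 to between 793 and 875 normalised counts. *Spry1*, the only Sprouty gene with enough reads, was between 34.2 and 48.1 in control and between 25.6 and 45.0 in knockdown libraries. Its interval, from -0.48 to 0.23 on the log2 scale, was wide. An opposite-strand gene covers 24.4% of the exon bases of *Spry1*, and that gene had no count.

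Of the PEA3 factors, *Etv1* rose and *Etv5* was not called. *Etv1* (ENSMUSG00000004151, chromosome 12, 38779380 to 38870484) was at 2267, 2253, 2307, 2258 and 2351 in control libraries and at 3388, 3137, 3289, 3262 and 3411 in knockdown libraries. No library of one line came near the other line, and the log2 change was 0.53 ± 0.029 (SE, edgeR adjusted p = 8.4e-19). *Etv5* was between 949.9 and 1056 in control and between 893 and 1064 in knockdown libraries, with an interval from -0.13 to 0.03. Which of the 2 had the higher level in control libraries depended on the gene length used. *Etv5* was at 12.1 FPKM and *Etv1* at 8.48 over all exons, and at 12.4 and 17.2 over the longest transcript.

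Promoter sequence was examined because Creb3l1 is known to bind a G-box. In the study's reporter assays Creb3l1 activated the *Pcsk1* promoter, and removal of the G-box prevented this. RefSeq windows of GRCm38.p6, from 250 bases before to 50 after a start site, were given for 31 of the 41 members, and *Ntrk3*, *Insr* and *Mapk3* were among those without one. The words searched were CACGTG and GACGTG on either strand, and no window of a member held more than 1. At least 1 of them was found for 9 of the 31 members (29.0%), against 14.5% of the 27025 genes with a window. Among members called as higher it was found in 4 of 7. Among those called as lower it was found in 1 of 3 (*Fgfr2*, 28 bases after the start site). It was also found in 2 of 10 members that were not called (*Nras* and *Etv5*) and in 2 of 11 that were not tested (*Fgfr4* and *Met*). The shares were not matched for base composition, and the 27025 genes with a window include genes that were not tested. No enrichment is read from them. The stretches around the word are printed for the 4 members called as higher, with the word in capitals and the strand of the gene.
Dusp5 (chr19:53529048-53529133, plus strand): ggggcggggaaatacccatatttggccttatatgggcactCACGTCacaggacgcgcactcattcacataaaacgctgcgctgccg
Irs1 (chr1:82291509-82291594, minus strand): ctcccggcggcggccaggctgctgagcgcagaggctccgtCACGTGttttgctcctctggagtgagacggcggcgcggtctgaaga
Irs2 (chr8:11008930-11009013, minus strand): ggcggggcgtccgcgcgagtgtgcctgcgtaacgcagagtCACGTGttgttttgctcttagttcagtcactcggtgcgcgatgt
Spred1 (chr2:117120916-117121001, plus strand): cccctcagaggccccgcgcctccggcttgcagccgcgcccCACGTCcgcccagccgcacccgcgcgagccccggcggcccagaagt
In *Dusp5* and *Spred1* the word is read on the opposite strand, starting 57 and 115 bases before the start site. In *Irs1* and *Irs2* it is the palindrome CACGTG, which starts 115 and 44 bases before it. These distances are to the RefSeq start site. For *Irs1*, *Irs2* and *Spred1* that site lies upstream of the gene span printed above. For *Fgfr2*, on the minus strand, the window (130266759 to 130267058) instead lies far inside the long span printed above. *Kit*, *Etv1* and *Fgfr3* had windows that held neither word. The 4 members printed were picked because they rose, so their shared direction is no result. *Fgfr2*, which also held a word, fell, as did *Pcsk1*. These matches describe the sequence and no binding was measured here. Whether Creb3l1 acts on these promoters was not tested.

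The same pathway was followed in 139 further genes, of which 82 were tested, 27 rose and 16 fell. That is 52.4% called, against 40.7% of all genes tested, and as calls depend on depth no result about these lists is read from their counts. Of the receptor ligands 16 of 42 were tested, and 3 rose and 3 fell. *Pdgfa* rose 2.13-fold (34.7 ± 8.43 to 73.2 ± 6.20 normalised counts, SD, n = 5 each) while *Pdgfb* fell by 1.70 on the log2 scale (45.5 ± 3.47 to 13.7 ± 5.06). Both encode platelet-derived growth factors, whose receptors were too low to test. The TrkB ligand *Ntf5* and the RET coreceptor ligand *Artn* fell by 1.22 and 0.96, and their receptors *Ntrk2* and *Ret* were likewise too low to test. *Fgf21*, named after its values were seen, was by far the most abundant of the ligands at 504 FPKM in the control line, and it rose by a log2 fold change of 0.31.

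Of 34 receptor tyrosine kinases outside the list 11 were tested, and 6 rose and 3 fell (81.8% called, where 40.7% of all genes tested were). Besides *Insrr*, changes of at least 1.5-fold were found for the ephrin receptors *Epha5* (log2 fold change 1.05) and *Ephb6* (0.60). Among adaptors and other cascade genes 31 of 33 were tested, with 11 higher and 5 lower. The RAS-like GTPase gene *Rras* was the one with such a change, at -0.84. Of 19 further ERK-induced and feedback genes 13 were tested, and 3 rose and 3 fell. *Ier3*, an immediate early gene induced by growth factors, fell by 1.86 (145 ± 12.1 to 39.5 ± 7.04 normalised counts, SD, n = 5 each). *Spred3* fell by 0.88, and *Lzts1* had a log2 fold change of 1.06. In the list of USP8 partners and endosomal sorting genes 11 of 12 were read, 4 rose and 2 fell, none of them by 1.5-fold. *Hgs* was not read because 2 gene models cover the same place.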

How the data were processed

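RNA from 10 AtT20 libraries was enriched for poly(A) RNA with a stranded kit and sequenced in pairs. Per the study's methods the authors quality-trimmed these reads, ran STAR against GRCm38 and summed reads over Ensembl genes with featureCounts. They deposited whole-number counts with no normalisation. Symbols and exon lengths came from GENCODE M21 (GRCm38), which named 53706 of 53801 identifiers.

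Counts were tested in R 4.3.3 with edgeR 4.0.16 (filterByExpr, TMM factors, robust quasi-likelihood fit, no covariate). Adjustment was by Benjamini and Hochberg over 14336 genes, with a threshold of 0.01. Standard errors came from the log2 fold change and its F statistic. The members, the gene lists and the tests were chosen with earlier results of these data known. All members were named, with values per library for the 10 called members with the largest changes (a minimum fold was set) and for *Egfr*, *Usp8* and the cascade. Other pathway genes were named when called at 1.5-fold or more. Levels per length used the union of exons, and totals of 17420698 to 22205107 counts per library limit the genes with few reads.

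Alternatives were DESeq2 1.42.0, RLE factors, library totals, other filters, a replicate block, each library left out, other thresholds and offsets for GC content and length (5 degrees of freedom each). A fit without robust estimation was added after the data were seen. The labels name no replicates, and the replicate numbers used here were taken from the last digit of each library title. Same-numbered libraries were not paired, as their deviations correlated between -0.060 and 0.036. No 2 libraries of a line agreed within sampling noise. *Creb3l1*-shRNA1 replicate 2 lay farther from the other knockdown libraries than these lay from each other. Without it 6026 genes were called, against 5837 with all libraries. The scripts were tested on simulated data.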

Additional observations from a re-analysis of the deposited data

Results flagged for a closer look

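In each line the lowest and highest of the 5 libraries was compared with the next one for 27 genes, the 26 members tested and *Creb3l1*. Of 54 groups 4 held a library whose gap passed Dixon's 95% critical value, where chance gives about 1 in 20, or 2.70. For *Kit* this was replicate 2 of the non-targeting shRNA line, with 199 normalised counts where the others had 131 to 146. Its log2 change was 2.20 without that library and 2.07 with it. The other 3 lay in the knockdown line. *Ntrk3* had 1847 normalised counts in replicate 5, where the rest had 1566 to 1619.8. For *Irs1* replicate 2 had 704 and the rest had 604 to 629. For *Errfi1* replicate 1 had 793 and the rest had 859 to 875. The 4 values lie in 4 different libraries, and each of these genes kept its call and direction without any one library.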

How the results depend on the processing

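All 15 members called kept their call and direction in all 18 alternative fits, so the number of members called as higher was from 9 to 10 and as lower from 6 to 7. A minimum change of 1.5-fold left 5 higher and 1 lower members, 5 higher and 6 lower genes of the other pathway lists and 1108 genes in all, because most changes are smaller. *Ddr2* changed sign with library totals (0.0086) and was from -0.023 to 0.019 with each library left out. It was called with offsets for length and GC content (-0.12). With the same offsets *Braf* turned to -0.058 and *Map2k1* to 0.035, neither called, and *Map2k2* was called. Among members called, the offsets moved *Irs1* from 0.36 to 0.26, *Etv1* from 0.53 to 0.41 and *Insr* from -0.52 to -0.64. The cause of these shifts was not tested. The fit with the replicate number as a block called 6013 of 14336 genes, against 5837, and changed the call of no member except *Map2k2*. Over all genes the median log2 fold change was from -0.018 to 0.011 across the fits. With the longest transcript in place of the union of exons, 23 members had a control level of at least 1, against 21. Depth limits the 15 members with few reads and *Spry1*.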
